A study of Homo sapiens with 16 samples.

Results

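The cytosolic ribosomal protein genes are the protein-coding genes whose GENCODE 29 symbol begins with RPL or RPS and a number, together with RPLP0, RPLP1, RPLP2 and RPSA, with ribosomal S6 kinases and pseudogenes left out. The rule was applied to symbols alone and found 84 of the 58735 genes in the count table, 52 of the large subunit and 32 of the small subunit. They were followed in HUH6, an established human hepatoblastoma cell line, through 16 libraries of total RNA in 4 groups of 4: hypoxia with SLC-0111, hypoxia with DMSO, normoxia with SLC-0111 and normoxia with DMSO. SLC-0111 is a sulfonamide inhibitor of the tumour-associated carbonic anhydrases IX and XII and was given at 100 µM, DMSO is the solvent control, hypoxia was 1% oxygen, and every treatment lasted 48 h. The labels call the 4 libraries of a group technical replicates of 1 cell line, so p-values measure only the spread between such libraries. In 2 libraries, 1 of hypoxia with DMSO and 1 of normoxia with SLC-0111, the column name and the labels disagree on the replicate number, and these are called unnumbered.

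A ribosome carries a single copy of each of these proteins, apart from the stalk proteins RPLP1 and RPLP2, so cells make them in matched amounts and degrade what is left unassembled. Their messages are abundant and stable, and most begin with a C followed by a run of pyrimidines, the 5′ terminal oligopyrimidine (TOP) tract, through which LARP1 and the kinase mTORC1 set how much of each message is translated. Low oxygen is known to reduce mTORC1 signalling and protein synthesis in many cells. Message counts do not measure translation.

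Levels are in CPM, counts scaled to a common library size after TMM adjustment, and changes are log2 fold changes from edgeR's quasi-likelihood test, fitted over all 18385 genes that passed the filter on low counts, with Benjamini-Hochberg adjusted p and a call at an adjusted p under 0.05. The value after ± is the SE for a log2 fold change and the SD of 4 libraries for a mean level. Of the 84 genes, 82 passed this filter. RPL10L, a testis-expressed copy of RPL10, had 0 counts in every library, which allows up to 0.00697 CPM over all of them together. RPL39L, a testis-expressed copy of RPL39, had 2 counts in all, 1 in hypoxia with SLC-0111 replicate 4 and 1 in normoxia with DMSO replicate 2.

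Total counts per library ran from 3298106, in hypoxia with DMSO replicate 3, to 49248964, and the next lowest total was 18275209. The first principal component, 47.9% of the variance, separated hypoxia from normoxia, and the second, 18.6%, set hypoxia with DMSO replicate 3 apart. All 9 tested hypoxia marker genes passed the test upward in hypoxia under both compounds. Among them CA9, which encodes carbonic anhydrase IX, averaged 26.6 ± 2.90 CPM in hypoxia with SLC-0111, 56.2 ± 7.55 CPM in hypoxia with DMSO, 0.0477 ± 0.0377 CPM in normoxia with SLC-0111 and 0.0584 ± 0.0703 CPM in normoxia with DMSO (SD, n = 4 each). Of 12 hepatoblastoma and fetal liver markers 11 passed the filter. In hypoxia 4 of the 11 were higher and 5 lower with SLC-0111, and 3 higher and 5 lower with DMSO. The shares of all genes tested were 23.9% higher and 24.3% lower with SLC-0111, and 25% and 24.8% with DMSO. AFP, alpha-fetoprotein, averaged 434 CPM in hypoxia with DMSO and 708 CPM in normoxia with DMSO. TF, transferrin, averaged 2995 CPM in hypoxia with DMSO and 1264 CPM in normoxia with DMSO, while DLK1 was near 0. Of 10 markers of blood, endothelial and stromal cells, PTPRC, CD3E, CD68, VWF, DCN and LUM were at or near 0 and not tested, and CD14, CDH5 and PDGFRB, 3 of the 4 tested, were higher in hypoxia under both compounds, while PECAM1 was not. The 10 summed to 94.2 to 103 CPM in hypoxia with SLC-0111, 105 to 119.5 CPM in hypoxia with DMSO, 73.8 to 82.3 CPM in normoxia with SLC-0111 and 81.0 to 86.3 CPM in normoxia with DMSO, and their part in the results was not tested.

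The 84 genes together took about 1 count in 20, and a slightly smaller share in hypoxia. Their share of all counts was 5.38%, 5.13%, 5.49% and 4.92% in hypoxia with SLC-0111 (replicates 1 to 4) and 5.41%, 5.00%, 5.76% and 4.72% in hypoxia with DMSO (replicates 1 to 3 and the unnumbered library). It was 6.21%, 5.77%, 4.88% and 6.10% in normoxia with SLC-0111 (replicates 1, 3 and 4 and the unnumbered library) and 6.03%, 5.85%, 5.70% and 5.62% in normoxia with DMSO (replicates 1 to 4), and values of single libraries are given in this order throughout. The ranges overlapped between hypoxia and normoxia under both compounds: hypoxia with DMSO replicate 3 lay within the normoxia DMSO range, and normoxia with SLC-0111 replicate 4 lay below all hypoxia SLC-0111 libraries. That last library also had the largest share of mitochondrial counts, 15.3%, where the other 15 had 5.73% to 11.2%. With nuclear protein-coding counts alone as the denominator, the share was 5.72% to 6.19% in hypoxia with SLC-0111 and 6.26% to 7.15% in normoxia with SLC-0111, which did not overlap, and 5.23% to 6.35% in hypoxia with DMSO and 6.51% to 6.85% in normoxia with DMSO, which did not overlap either. Less RNA per cell from these genes and fewer cells that express them cannot be told apart in such bulk RNA.

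**Figure D1:**
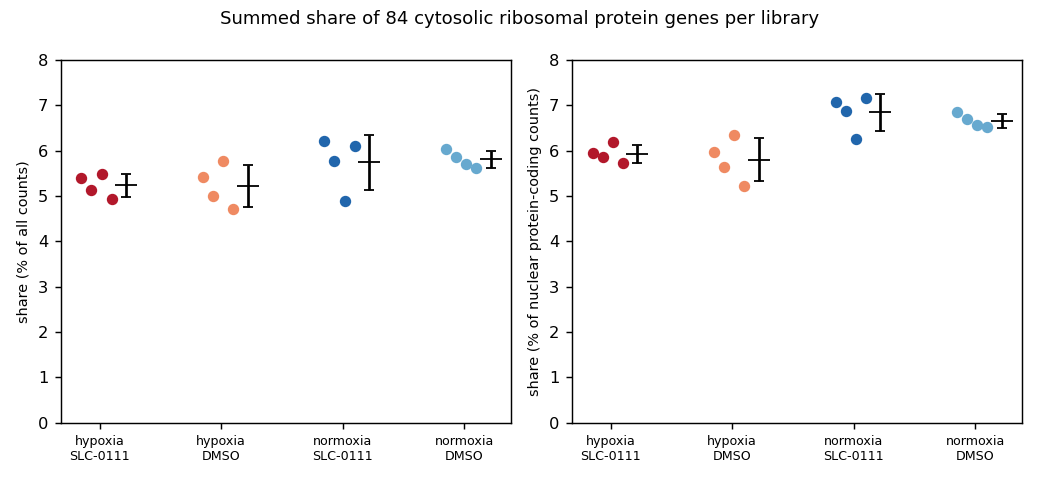
Share of the 84 ribosomal protein genes in each library, as a percentage of all counts (left) and of counts in nuclear protein-coding genes (right), with the group mean and SD beside the 4 points. On the right the hypoxia libraries reach 6.19% at most with SLC-0111 and 6.35% with DMSO, below the lowest normoxia libraries at 6.26% with SLC-0111 and 6.51% with DMSO.

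The genes moved up and down together from library to library, also within a group. Over the 75 genes that averaged 20 CPM or more, the median deviation from the group mean was -0.15 on the log2 scale in the unnumbered library of hypoxia with DMSO, where 0 of 75 genes lay above their group mean. It was 0.14 in hypoxia with DMSO replicate 3, where 73 of 75 lay above, and -0.16 in normoxia with SLC-0111 replicate 4, where 1 of 75 lay above. In the other 13 libraries it lay between -0.09 and 0.08. The pooled SD of these library medians, 0.09, is close in size to the median effects given next.

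**Figure D2:**
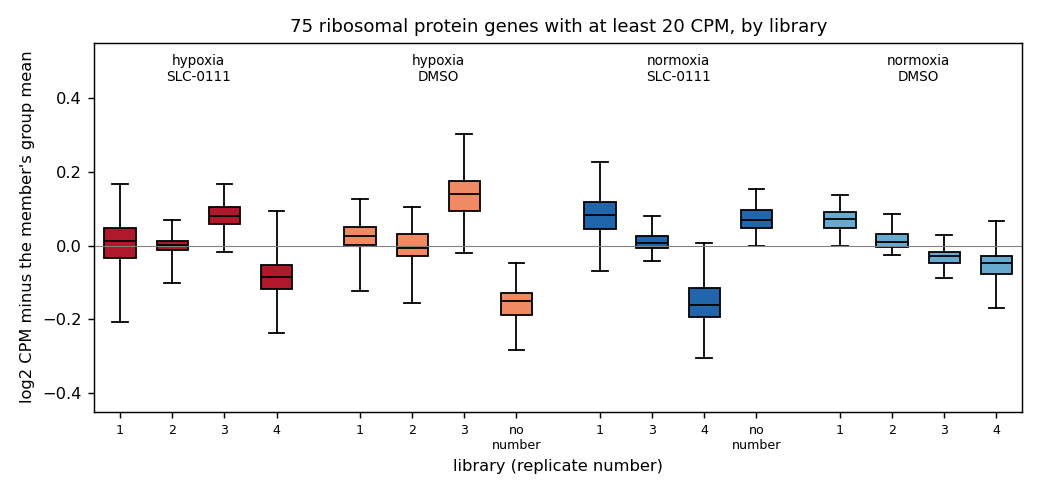
Log2 CPM of each of 75 ribosomal protein genes minus the gene's own group mean, by library. Boxes span the quartiles, lines mark medians and whiskers reach the lowest and highest gene. The whole box of 75 genes lies below 0 in the unnumbered hypoxia DMSO library and in normoxia with SLC-0111 replicate 4, and above 0 in hypoxia with DMSO replicate 3.

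Nearly all ribosomal protein messages lay slightly below 0 in hypoxia, some were called lower and none was higher by the test. With SLC-0111, 26 of 82 genes (31.7%) were called lower and 0 higher. Of all 18385 genes 24.3% were called lower and 23.9% higher (48.2% either way), so the share called lower was only a little above that of all genes. The median log2 fold change was -0.11 over the 82 genes and -0.03 over all genes tested, and 81 of 82 genes lay below 0. With DMSO, 36 of 82 (43.9%) were called lower and 0 higher, against 24.8% of all genes lower and 25% higher (49.8% either way). There the median was -0.15 over the 82 genes and -0.002 over all genes, and again 81 of 82 lay below 0. At an unadjusted p under 0.05 edgeR gave 0 genes higher in either contrast, and DESeq2 and limma-voom called 0 higher. Without overlap between the 4 hypoxia and the 4 normoxia libraries, 12 of 82 genes were lower and 0 higher with SLC-0111. There 21.4% of all genes were lower and 22.3% higher. With DMSO 21 of 82 were lower and 0 higher, where 21.9% of all genes were lower and 20.7% higher. The share of lower genes without overlap was thus below that of all genes with SLC-0111 and near it with DMSO.

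**Figure D3:**
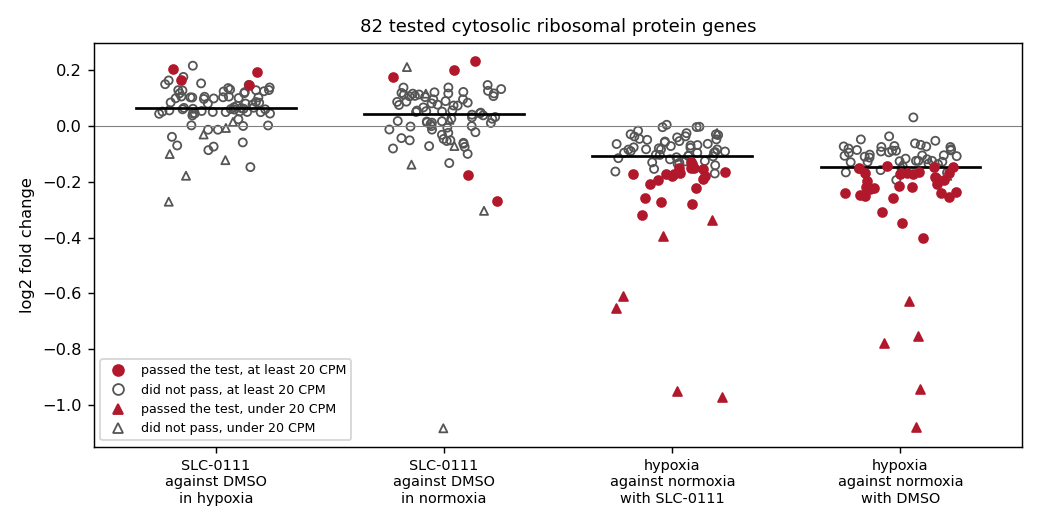
Log2 fold changes of the 82 tested ribosomal protein genes in 4 contrasts. Each point is a gene, filled where it passed the test and open where it did not, as circles for genes with at least 20 CPM and triangles for those below, and the line is the median. The medians of hypoxia against normoxia are -0.11 with SLC-0111 and -0.15 with DMSO, those of SLC-0111 against DMSO 0.07 in hypoxia and 0.04 in normoxia, and the points furthest down are low-count genes.

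The number of calls rested on few libraries. With SLC-0111 it was 12 without hypoxia SLC-0111 replicate 2, 15 without normoxia SLC-0111 replicate 3 or the unnumbered one, 17 without hypoxia SLC-0111 replicate 1 or 4 or normoxia DMSO replicate 2, and 45 without normoxia SLC-0111 replicate 4. With DMSO it was 16 without the unnumbered hypoxia DMSO library (median -0.09) and 48 without hypoxia DMSO replicate 3 (median -0.17). Without both hypoxia DMSO replicate 3 and normoxia SLC-0111 replicate 4, a choice made after seeing the data, 46 genes were lower with SLC-0111 and 54 with DMSO. In each of these fits 0 genes were called higher.

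The 2 oxygen contrasts share no library. Of the genes called lower, 20 were called in both, which is 76.9% of those with SLC-0111 and 55.6% of those with DMSO. In both contrasts 80 of 82 genes lay below 0. For comparison, 53.1% of all genes tested lay below 0 with SLC-0111 and 50.2% with DMSO, and their overlap was not counted. The 82 genes move together within a library, so they are not separate observations. Among the 20 are RPL6, RPL7, RPL7L1, RPL9, RPL10A, RPL17, RPL19, RPL22, RPL23, RPL23A, RPL26L1, RPL27A, RPL30, RPL36A and RPL37 of the large subunit and RPS7, RPS10, RPS26 and RPS27L of the small subunit. By subunit, 18 of 50 large and 8 of 32 small subunit genes were lower with SLC-0111, and 23 of 50 and 13 of 32 with DMSO. Over all genes 24.3% were lower with SLC-0111 and 24.8% with DMSO. No difference between the subunits was tested.

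Among the largest falls that passed the test in both contrasts, in genes with at least 1 CPM, were those of RPL36A, RPS10 and RPL17, which are counted at a few CPM. RPL36A (chrX:101390824-101396154, plus strand), a large subunit protein, had 1.03, 0.802, 0.757 and 1.39 CPM in hypoxia with SLC-0111 and 1.45, 1.03, 0.298 and 0.690 CPM in hypoxia with DMSO. It had 1.61, 2.16, 2.06 and 2.21 CPM in normoxia with SLC-0111 and 1.75, 2.00, 2.15 and 2.02 CPM in normoxia with DMSO. Every hypoxia library lay below every normoxia library, with a log2 fold change of -0.97 ± 0.22 (adjusted p = 0.000785) with SLC-0111 and -0.94 ± 0.24 (adjusted p = 0.00217) with DMSO.

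RPL17 (chr18:49488453-49492523, minus strand) sits at the rim of the tunnel through which the new peptide leaves. It had 3.05, 3.37, 3.57 and 3.60 CPM in hypoxia with SLC-0111 and 4.24, 3.72, 3.57 and 3.19 CPM in hypoxia with DMSO. In normoxia the values were 4.87, 6.19, 5.28 and 4.46 CPM with SLC-0111 and 5.84, 5.68, 5.49 and 6.02 CPM with DMSO. Hypoxia and normoxia did not overlap under either compound, with log2 fold changes of -0.61 ± 0.11 (adjusted p = 9.97e-05) with SLC-0111 and -0.63 ± 0.12 (adjusted p = 0.000129) with DMSO. RPS10 (chr6:34417454-34426125, minus strand), a protein of the small subunit head that is ubiquitinated when ribosomes collide, had 0.774, 0.995, 0.613 and 0.957 CPM in hypoxia with SLC-0111 and 1.37, 0.844, 1.79 and 0.690 CPM in hypoxia with DMSO. It had 1.29, 1.44, 2.01 and 1.80 CPM in normoxia with SLC-0111 and 1.41, 1.84, 1.60 and 2.05 CPM in normoxia with DMSO. The DMSO groups overlapped through hypoxia replicate 3 and the SLC-0111 groups did not, and the log2 fold changes were -0.95 ± 0.23 (adjusted p = 0.00145) with SLC-0111 and -0.75 ± 0.24 (adjusted p = 0.0132) with DMSO. The DMSO call of RPS10 did not hold in 5 of 30 alternative fits.

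These 3 genes overlap others in the annotation. In GENCODE 29, 100% of the coding bases of RPL17, 94.3% of RPL36A and 92.1% of RPS10 also belong to a second gene on the same strand, such as RPL17-C18orf32, RPL36A-HNRNPH2 and RPS10-NUDT3, which are annotated as read-through genes. Those second genes had 0 counts in all 16 libraries. Of the other genes, RPL26 shares 71.0%, RPL22 59.9%, RPS15A 54.6% and RPL13A 1.31%, and 76 of the 84 genes share none. Levels per kilobase of coding sequence leave out the length of untranslated exons and compare genes only roughly. They were 8.17 CPM for RPL17, 4.60 for RPL36A, 2.71 for RPS10 and 39.7 for RPL26. RPL23A and RPL19, other tunnel-rim proteins that share none, had 396 and 1297. Whether reads in shared bases were set aside in the authors' count was not tested, and the changes given for these genes describe only the reads that were assigned to them. With the 7 tested genes under 20 CPM left out, 20 of 75 were lower with SLC-0111 (26.7%, median -0.10). With DMSO it was 31 of 75 (41.3%, median -0.14). Over all genes 24.3% were lower with SLC-0111 and 24.8% with DMSO.

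In genes with at least 10 CPM, no called fall was larger than that of RPL26L1 with DMSO, at -0.40 on the log2 scale. With SLC-0111 the largest were RPL22L1 at -0.39, RPL26 at -0.34, RPL7L1 at -0.32, RPL26L1 at -0.28, RPL7 at -0.27 and RPS27L at -0.26. With DMSO the next after RPL26L1 were RPS27L at -0.35, RPL7L1 at -0.31, RPL19 at -0.26, RPL7 at -0.25 and RPS26 at -0.25. RPS6, the small subunit substrate of S6 kinase and a standard readout of mTORC1 activity at the protein level, was called lower with SLC-0111 at -0.18 ± 0.07 (adjusted p = 0.0493) and not with DMSO at -0.17 ± 0.07 (adjusted p = 0.065), and the difference between both did not pass the test. RPL5, which with RPL11 and the 5S RNA can bind and inhibit MDM2, was the gene with the highest log2 fold change with DMSO, 0.03 ± 0.07 (adjusted p = 0.733), and 2 SE either side spanned -0.10 to 0.16. RPL11 had -0.09 ± 0.06 (adjusted p = 0.269) in the same contrast, and neither passed the test.

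**Figure D4:**
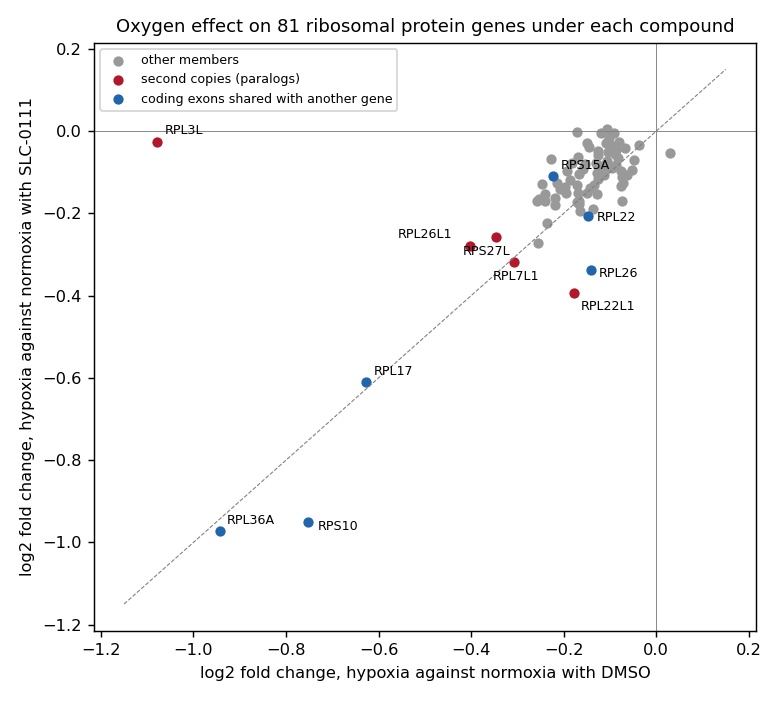
Log2 fold change of hypoxia against normoxia in cells with SLC-0111 (vertical) and with DMSO (horizontal) for 81 ribosomal protein genes, with the line of equal change dashed. Second copies are red and genes with over 50% of their coding bases in another gene are blue. RPL36A, RPS10 and RPL17 are far below 0 on both axes, RPL3L is so with DMSO alone, and nearly all genes are below 0 on both axes.

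Start sites of 4 second copies are shown with those of 3 parents, because 3 of the copies lack the TOP tract that most of the family has. Sequences are 50 bases around the annotated transcription start in RefSeq on GRCh38.p14, 25 before it and 25 from it on, read 5′ to 3′ on the gene's strand, with a TOP tract in capitals. A tract was a C followed by at least 4 pyrimidines (C or T), with the C within 5 bases of the start, searched on the strand of the gene alone.
RPL26 (chr17:8383169-8383218, minus strand): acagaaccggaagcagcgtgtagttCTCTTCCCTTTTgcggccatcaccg
RPL26L1 (chr5:172958704-172958753, plus strand): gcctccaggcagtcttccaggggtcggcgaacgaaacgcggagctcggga
RPL26L1 (chr5:172958855-172958904, plus strand): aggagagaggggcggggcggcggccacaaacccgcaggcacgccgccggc
RPS27 (chr1:153990737-153990786, plus strand): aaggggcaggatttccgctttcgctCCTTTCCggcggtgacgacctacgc
RPS27L (chr15:63157453-63157502, minus strand): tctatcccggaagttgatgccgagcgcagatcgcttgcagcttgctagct
RPL22 (chr1:6199571-6199620, minus strand): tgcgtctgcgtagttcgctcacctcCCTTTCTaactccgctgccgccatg
RPL22L1 (chr3:170870171-170870220, minus strand): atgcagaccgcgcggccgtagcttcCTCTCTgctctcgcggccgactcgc
RPL7L1 (chr6:42879591-42879640, plus strand): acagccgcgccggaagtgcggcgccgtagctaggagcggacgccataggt
The parents RPL26, RPS27 and RPL22 begin with a tract of 12, 7 and 7 bases. RPL22L1 has one of 6 bases, and RPL26L1, RPS27L and RPL7L1 have none by this definition.

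Of the 84 genes, 67 had a start in the RefSeq table, and 54 of these (80.6%) had a TOP tract. Over all 27305 genes of that table a share of 25.2% had one, and over all 35116 start windows 21.1%. The tract was found in 16 of 69 mitochondrial ribosomal protein genes (23.2%) and in 9 of 10 other genes known for TOP messages. The 13 without one were RPL6, RPL7L1, RPL9, RPL10L, RPL15, RPL17, RPL26L1 and RPL27 and RPS4X, RPS15, RPS26, RPS27L and RPS29. With SLC-0111, 7 of the 12 tested genes without a tract were lower in hypoxia (median -0.18) and 13 of the 54 with one (median -0.11). With DMSO it was 9 of 12 (median -0.23) and 19 of 54 (median -0.14). Over all genes tested 24.3% were lower with SLC-0111 and 24.8% with DMSO. The difference between genes with and without a tract was not tested, and the 12 include 3 second copies and RPL17. A match or its absence describes these letters alone.

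Of 7 second copies of ribosomal proteins 5 were tested, and 4 of these were called lower in each contrast. Among all genes 24.3% were called lower with SLC-0111 and 24.8% with DMSO. The copies called were RPL22L1 with SLC-0111, RPL3L with DMSO on few counts, and RPL7L1, RPL26L1 and RPS27L in both. RPL26L1 (chr5:172958729-172969771, plus strand), which differs little from RPL26, had 27.1, 24.4, 27.1 and 26.1 CPM in hypoxia with SLC-0111 and 31.3, 26.5, 33.6 and 27.1 CPM in hypoxia with DMSO. It had 34.7, 30.8, 28.4 and 33.4 CPM in normoxia with SLC-0111 and 40.7, 38.4, 37.0 and 37.1 CPM in normoxia with DMSO. The groups did not overlap, and the log2 fold change was -0.28 ± 0.07 (adjusted p = 0.00205) with SLC-0111 and -0.40 ± 0.07 (adjusted p = 6.36e-05) with DMSO. RPS27L (chr15:63125872-63158021, minus strand), a copy of RPS27 that is also a target of p53, had 90.4, 99.3, 97.2 and 104 CPM in hypoxia with SLC-0111 and 111.3, 99.3, 119.7 and 90.5 CPM in hypoxia with DMSO. In normoxia it had 122, 114, 115 and 118 CPM with SLC-0111 and 135, 140.3, 125 and 129 CPM with DMSO. All hypoxia libraries lay below the normoxia libraries of the same compound, with -0.26 ± 0.06 (adjusted p = 0.00187) for SLC-0111 and -0.35 ± 0.07 (adjusted p = 9.92e-05) for DMSO.

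RPL7L1 (chr6:42879618-42889925, plus strand), a more distant relative of RPL7, had 113, 108, 108 and 105 CPM in hypoxia with SLC-0111 and 123, 112, 112 and 108 CPM in hypoxia with DMSO. It had 139, 137, 128 and 137 CPM in normoxia with SLC-0111 and 141, 142, 139 and 142 CPM in normoxia with DMSO. Every hypoxia library lay below the normoxia libraries of the same compound, with log2 fold changes of -0.32 ± 0.05 (adjusted p = 3.82e-06) with SLC-0111 and -0.31 ± 0.05 (adjusted p = 6.29e-06) with DMSO. RPL22L1 (chr3:170864875-170870483, minus strand), a copy of the RNA-binding protein RPL22, had 10.4, 11.0, 10.8 and 10.3 CPM in hypoxia with SLC-0111 and 10.3, 12.4, 11.6 and 11.4 CPM in hypoxia with DMSO. Its normoxia values were 13.7, 14.2, 13.2 and 15.1 CPM with SLC-0111 and 13.9, 13.0, 13.4 and 11.4 CPM with DMSO. Only the SLC-0111 contrast passed the test, -0.39 ± 0.08 (adjusted p = 0.000143), while the DMSO libraries overlapped, -0.18 ± 0.08 (adjusted p = 0.0703), and the difference between the contrasts did not pass. RPL3L, a copy of RPL3 made mainly in muscle, was not called with SLC-0111, -0.03 ± 0.45 (adjusted p = 0.972), and was called lower with DMSO, -1.08 ± 0.44 (adjusted p = 0.0467), on 1 to 10 counts in a hypoxia DMSO library and 6 to 19 in a normoxia DMSO library.

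Of the 7 parents, 3 were called lower with SLC-0111 and 2 with DMSO, against 24.3% and 24.8% of all genes. RPL26, with most of its coding bases shared, averaged 15.8 ± 0.447 CPM in hypoxia with SLC-0111 and 19.9 ± 2.76 CPM in normoxia with SLC-0111 (SD, n = 4 each) and was called lower there, -0.34 ± 0.09 (adjusted p = 0.00389), and not with DMSO, -0.14 ± 0.10 (adjusted p = 0.249). RPS27 gave -0.005 ± 0.06 (adjusted p = 0.964) with SLC-0111 and -0.09 ± 0.07 (adjusted p = 0.26) with DMSO, and neither passed. RPL22 was lower in both, -0.21 ± 0.05 (adjusted p = 0.000841) with SLC-0111 and -0.15 ± 0.05 (adjusted p = 0.0143) with DMSO. RPL7 was lower in both too, -0.27 ± 0.08 (adjusted p = 0.00472) with SLC-0111 and -0.25 ± 0.08 (adjusted p = 0.00711) with DMSO. RPL3, RPL10 and RPL39, the parents of genes hardly counted here, were not called in either, with log2 values of -0.11, -0.07 and -0.07 with SLC-0111 and -0.06, -0.05 and -0.11 with DMSO. Per kilobase of coding sequence, the mean level of RPL7L1 was 8.28%, of RPL22L1 15.0% and of RPS27L 19.9% of its parent. These shares are rough, since the length of untranslated exons is left out. All annotated exons together span 7809 bases in RPL7L1 and 2907 in RPL7, 2326 in RPL22L1 and 4682 in RPL22, and 9127 in RPS27L and 1035 in RPS27. RPL22 also has most of its coding bases shared with another gene. RPL26L1 came to 182.5% of RPL26, of which 71.0% of the coding bases are shared with another gene.

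**Figure D5:**
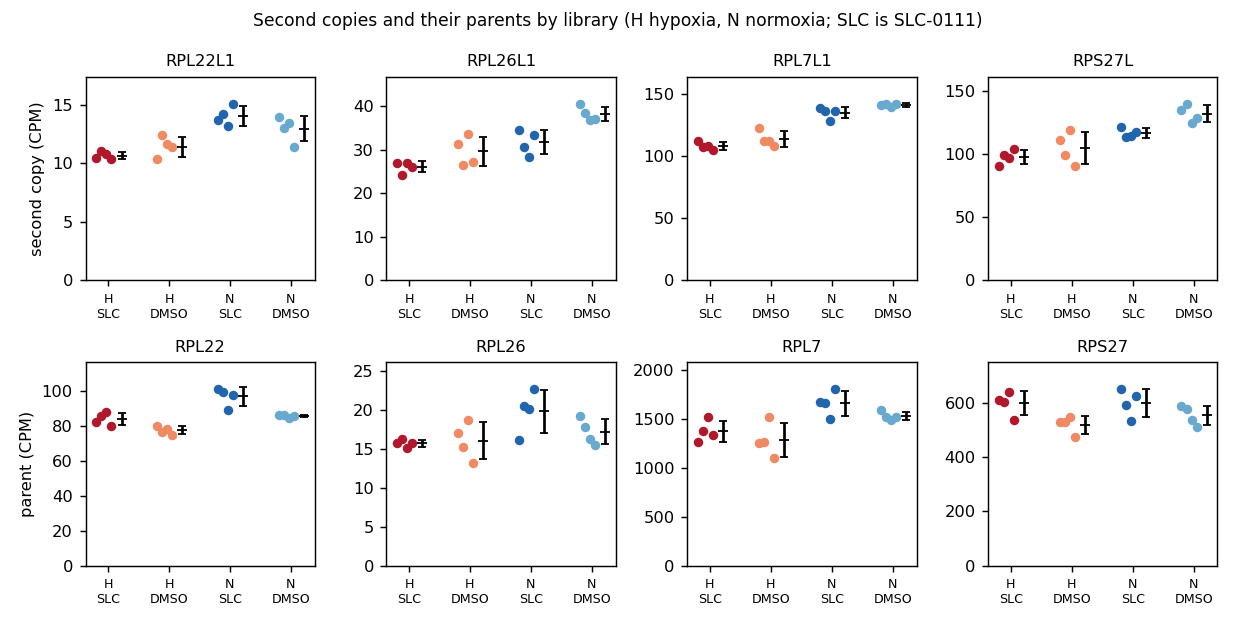
CPM of 4 second copies (top row) and their parents (bottom row) in each library, with group means and SD to the right of the points and axes from 0. H is hypoxia, N normoxia and SLC is SLC-0111. RPL26L1, RPL7L1 and RPS27L are lower in the hypoxia libraries under both compounds with no overlap, while RPS27 overlaps in both.

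With each library scaled to the summed counts of the 84 genes, an alternative added after seeing the data, a change is relative to the family, and the median of the 82 genes is near 0 by construction (0.000971 with SLC-0111 and -0.0145 with DMSO). In this edgeR fit 8 of 82 genes were lower and 0 higher with SLC-0111, where 13.1% of all genes were lower and 27.3% higher, and 9 were lower and 1 higher with DMSO, where 12.2% of all genes were lower and 30.7% higher. Because this scaling centres the family on itself, its share of calls cannot be compared with that of all genes. RPL26L1 was lower in both, at -0.17 ± 0.07 (adjusted p = 0.0455) with SLC-0111 and -0.25 ± 0.07 (adjusted p = 0.0049) with DMSO. RPL7L1 was also lower in both, at -0.21 ± 0.06 (adjusted p = 0.0106) with SLC-0111 and -0.17 ± 0.06 (adjusted p = 0.0343) with DMSO, as were RPL7, RPL36A and RPL17. RPL22L1 and RPS10 were called lower with SLC-0111 and not with DMSO, and RPS27L, RPL19 and RPS26 with DMSO and not with SLC-0111. RPL5 was called higher with DMSO, at 0.16 ± 0.04 (adjusted p = 0.00324). Under this scaling the median of all genes tested was 0.07 with SLC-0111 and 0.15 with DMSO, where it had been -0.03 and -0.002.

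SLC-0111 changed few ribosomal protein messages. Its contrasts use the same 16 libraries as the oxygen contrasts and are not independent of them. In hypoxia 4 of 82 genes were called higher and 0 lower, where 16.3% of all genes were called (9.14% higher and 7.11% lower), and in normoxia 3 were higher and 2 lower, where 23.6% were called (12.4% higher and 11.2% lower). The median log2 fold change over the 82 genes was 0.07 in hypoxia and 0.04 in normoxia, and over all genes -0.01 and 0.02. With libraries scaled by size alone the medians of the 82 genes were -0.002 in hypoxia and -0.03 in normoxia. Those of all genes were -0.07 and -0.05. The sign of the family's median under SLC-0111 thus turned with the scaling, as the medians of all genes moved down too. Under both scalings the family's median lay above that of all genes. At an unadjusted p under 0.05, 20 were higher and 0 lower in hypoxia, and 12 higher and 4 lower in normoxia, and DESeq2 and limma-voom gave 0 lower in hypoxia as well. Without overlap between SLC-0111 and DMSO libraries, 7 were higher and 0 lower in hypoxia (9.74% and 7.3% of all genes), and 5 higher and 4 lower in normoxia (15.1% and 14.5%).

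In hypoxia the genes called higher were RPS27, RPS28, RPL21 and RPL23A. RPS28 (chr19:8321158-8323340, plus strand), which lies at the mRNA exit channel of the small subunit, had 278, 265, 272 and 258 CPM with SLC-0111 and 235, 240.2, 242 and 223 CPM with DMSO. The groups did not overlap, and the log2 fold change was 0.19 ± 0.05 (adjusted p = 0.00433). In normoxia RPS28 had 269 ± 8.68 CPM with SLC-0111 and 264 ± 11.8 CPM with DMSO, 0.03 ± 0.04 (adjusted p = 0.733). RPS27 (chr1:153990755-153992155, plus strand), a zinc finger protein of the small subunit, had 609.8, 602, 641 and 536 CPM with SLC-0111 and 528, 529.9, 548 and 472 CPM with DMSO in hypoxia. SLC-0111 replicate 4 lay below DMSO replicate 3, and the log2 fold change was 0.20 ± 0.07 (adjusted p = 0.0354). RPL21 (chr13:27251309-27256691, plus strand), of the large subunit, had 609.8, 622, 674 and 617 CPM with SLC-0111 and 579, 559, 601 and 515 CPM with DMSO in hypoxia, with no overlap and 0.16 ± 0.06 (adjusted p = 0.0471). RPL23A (chr17:28719393-28724359, plus strand), the docking site of the signal recognition particle at the tunnel exit, had 179.8, 191, 182 and 185 CPM with SLC-0111 and 171, 174, 169 and 152 CPM with DMSO in hypoxia, also with no overlap and 0.15 ± 0.05 (adjusted p = 0.0319).

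In normoxia the genes called higher were RPL12, RPL4 and RPL22. RPL12 (chr9:127447674-127451405, minus strand), which forms the base of the lateral stalk together with RPLP0, had 890.4, 883, 780.2 and 916 CPM with SLC-0111 and 766, 741, 723 and 723 CPM with DMSO. All SLC-0111 libraries were higher, with a log2 fold change of 0.23 ± 0.07 (adjusted p = 0.0111). In hypoxia it had 782, 787, 869 and 729 CPM with SLC-0111 and 701, 701, 792 and 614 CPM with DMSO, and the groups overlapped, with 0.18 ± 0.07 (adjusted p = 0.0709). RPL22 (chr1:6185020-6209389, minus strand) had 101, 99.4, 89.1 and 97.8 CPM with SLC-0111 and 86.5, 86.0, 84.6 and 85.7 CPM with DMSO in normoxia, with no overlap and 0.18 ± 0.05 (adjusted p = 0.00799). RPL4 (chr15:66498015-66524532, minus strand), part of the wall of the exit tunnel and host of several small nucleolar RNAs in its introns, had 1503, 1425, 1230.4 and 1432 CPM with SLC-0111 and 1281, 1205, 1201 and 1183 CPM with DMSO. SLC-0111 replicate 4 lay inside the DMSO range, and the log2 fold change was 0.20 ± 0.06 (adjusted p = 0.0211). The call was lost in 1 of 30 alternative fits for RPL12, 2 of 30 for RPL22 and 7 of 30 for RPL4.

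The genes called lower in normoxia were second copies. RPL26L1 had 31.8 ± 2.80 CPM with SLC-0111 and 38.3 ± 1.72 CPM with DMSO (SD, n = 4 each), with no overlap in the values given above and a log2 fold change of -0.27 ± 0.07 (adjusted p = 0.00552). RPS27L had 117 ± 3.61 CPM with SLC-0111 and 132 ± 6.71 CPM with DMSO, again with no overlap and -0.18 ± 0.06 (adjusted p = 0.0448). The call was lost in 1 of 30 alternative fits for RPL26L1 and in 11 of 30 for RPS27L. Their parents lay on the other side of 0 and were not called, RPL26 at 0.21 ± 0.09 (adjusted p = 0.1) and RPS27 at 0.12 ± 0.06 (adjusted p = 0.216). Relative to the family, RPL12 and RPL4 were higher in normoxia, and RPL26L1, RPS27L, RPL35, RPL35A and RPS4X lower, where 5.97% of all genes were higher and 11.4% lower.

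For the genes called in hypoxia, the call was lost in 2 of 30 alternative fits for RPS28, 9 of 30 for RPS27, 9 of 30 for RPL23A and 16 of 30 for RPL21. Without hypoxia DMSO replicate 3, 15 genes were called higher in hypoxia, and without normoxia SLC-0111 replicate 4 the count was 10. It was 1 without the unnumbered hypoxia DMSO library or without hypoxia SLC-0111 replicate 2 or 3. In normoxia 13 were called higher without normoxia SLC-0111 replicate 4, and the 2 called lower became 1 without hypoxia SLC-0111 replicate 2, normoxia SLC-0111 replicate 3 or the unnumbered one, or normoxia DMSO replicate 2 or 4, and 4 without hypoxia DMSO replicate 1. Relative to the family, 0 genes were higher in hypoxia and RPL26L1 and RPL5 were lower, where 3.12% of all genes were higher and 8.44% lower.

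The starts of the genes called higher under SLC-0111 that have a start in the RefSeq table are shown because each begins with, or within 5 bases of its start reaches, a TOP tract, as 54 of 67 genes of the family do. RPL23A has no start in that table and was not examined, and RPL22 and RPS27 are printed above.
RPL12 (chr9:127451382-127451431, minus strand): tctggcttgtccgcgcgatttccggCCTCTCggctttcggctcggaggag
RPL4 (chr15:66504831-66504880, minus strand): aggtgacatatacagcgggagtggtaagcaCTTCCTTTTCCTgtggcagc
RPS28 (chr19:8321471-8321520, plus strand): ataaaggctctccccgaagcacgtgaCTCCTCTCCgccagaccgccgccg
RPL21 (chr13:27251533-27251582, plus strand): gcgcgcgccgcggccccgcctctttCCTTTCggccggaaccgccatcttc
With the tract in capitals, RPL12 and RPL21 have 6 bases from the start itself, RPS28 has 9 bases from 1 base later and RPL4 12 bases from 5 bases later.

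The effects of SLC-0111 in hypoxia and in normoxia were compared by the difference of both contrasts. Of the 82 genes 0 passed in either direction in edgeR, DESeq2 and limma-voom, where 5.99% of all genes passed in edgeR (2.87% higher and 3.13% lower). At an unadjusted p under 0.05, 1 gene was higher, RPS28, at 0.17 ± 0.06 (adjusted p = 0.124), with 2 SE either side spanning 0.04 to 0.29. The median of the difference was 0.04 over the 82 genes and -0.02 over all genes. A change that passed in 1 oxygen condition alone is therefore not shown to differ between them.

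By structural role, the lateral stalk, which recruits elongation factors, gave 1 call for SLC-0111 and 1 for oxygen. RPLP0 averaged 3508 ± 173 CPM in hypoxia with SLC-0111, 3310.4 ± 275 CPM in hypoxia with DMSO, 3828 ± 286 CPM in normoxia with SLC-0111 and 3479 ± 67.2 CPM in normoxia with DMSO (SD, n = 4 each). It had the second highest level of the family per kilobase of coding sequence, 3713 CPM, after the very short RPL41. Hypoxia with SLC-0111 gave 0 calls among the 4 stalk genes, with log2 values of -0.13 for RPL12, -0.13 for RPLP0, -0.03 for RPLP1 and -0.03 for RPLP2. With DMSO RPLP2 was lower, -0.15 ± 0.06 (adjusted p = 0.0302), while RPL12 had -0.08, RPLP0 -0.07 and RPLP1 -0.11. Over all genes tested 24.3% were lower with SLC-0111 and 24.8% with DMSO. Of 7 genes at the exit tunnel rim, 4 were lower with SLC-0111 and 3 with DMSO, and of 9 along the mRNA channel of the small subunit 2 and 3. Of 19 genes mutated in Diamond-Blackfan anaemia, a failure of red cell production, 6 were lower with SLC-0111 and 9 with DMSO.

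Of the 84 genes, 28 hold 60 small nucleolar RNA genes within their bounds, and 8 of these 28 were lower with SLC-0111, against 18 of the 54 tested genes without one. With DMSO it was 10 of 28 (median -0.13) and 26 of 54 (median -0.17), and the difference was not tested. Over all genes 24.3% were lower with SLC-0111 and 24.8% with DMSO. Of 4 genes on the X chromosome, RPL36A was the 1 that was lower in each contrast, and RPL10, RPL39 and RPS4X were not called. Over the 75 genes with at least 20 CPM, the log2 fold change in hypoxia with DMSO was higher in genes with higher mean CPM. Pearson r with log2 mean CPM was 0.53 and Spearman rho 0.441 (n = 75 genes measured in the same libraries). With SLC-0111 r was 0.239 and rho 0.1. Ribosomal protein pseudogenes, 1144 in the table, received 1.11% to 1.26% as many counts as the 84 genes in each library.

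Among 4 ribosomal proteins outside the symbol rule, 1 was lower in hypoxia with SLC-0111 and 2 with DMSO, against 24.3% and 24.8% of all genes. RPL36AL, the expressed copy of RPL36A, averaged 59.7 ± 3.09 CPM in hypoxia with SLC-0111, 67.9 ± 14.9 CPM in hypoxia with DMSO, 72.2 ± 4.79 CPM in normoxia with SLC-0111 and 85.5 ± 5.08 CPM in normoxia with DMSO (SD, n = 4 each), and was lower in hypoxia in both, -0.27 ± 0.10 (adjusted p = 0.0256) with SLC-0111, a call lost in 6 of 30 alternative fits, and -0.38 ± 0.10 (adjusted p = 0.0039) with DMSO. FAU, whose product carries RPS30, was not called with SLC-0111, -0.15 ± 0.07 (adjusted p = 0.0797), and was lower with DMSO, -0.33 ± 0.07 (adjusted p = 0.000354). RACK1, a scaffold on the small subunit, gave -0.12 ± 0.06 (adjusted p = 0.0919) with SLC-0111 and -0.10 ± 0.06 (adjusted p = 0.174) with DMSO. Of 77 tested mitochondrial ribosomal protein genes, which build the separate ribosome of mitochondria, 35 were lower and 4 higher in hypoxia with SLC-0111 (median -0.14) and 57 lower and 3 higher with DMSO (median -0.28). Over all genes 24.3% were lower and 23.9% higher with SLC-0111, and 24.8% and 25% with DMSO. For SLC-0111 against DMSO, 4 of the 77 were higher and 3 lower in hypoxia (median 0.03) and 1 was higher and 16 lower in normoxia (median -0.11). There the shares of all genes were 9.14% higher and 7.11% lower in hypoxia, and 12.4% and 11.2% in normoxia.

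Over all genes SLC-0111 gave 9.14% higher and 7.11% lower in hypoxia, and 12.4% and 11.2% in normoxia. Of 15 tested genes with other TOP messages, mostly translation factors, SLC-0111 gave 1 higher and 0 lower in hypoxia (median 0.07) and 9 higher and 0 lower in normoxia (median 0.16). EIF4A2, an RNA helicase, was the 1 in hypoxia, at 0.33 ± 0.09 (adjusted p = 0.021), a call lost in 7 of 30 alternative fits, and led in normoxia at 0.40 ± 0.09 (adjusted p = 0.00391), followed by EEF1A1, the factor that delivers tRNA to the ribosome, at 0.31 ± 0.10 (adjusted p = 0.0341), and its exchange factor EEF1B2 at 0.30 ± 0.07 (adjusted p = 0.00287). The EEF1A1 call was lost in 13 of 30 alternative fits. For hypoxia against normoxia, 24.3% of all genes were lower and 23.9% higher with SLC-0111, and 24.8% and 25% with DMSO. Of the 15 genes, 9 were lower and 1 higher with SLC-0111 and 6 lower and 2 higher with DMSO. EEF1D, another exchange factor, led both with -0.29 ± 0.04 (adjusted p = 6e-06) with SLC-0111 and -0.22 ± 0.04 (adjusted p = 0.00018) with DMSO, and NPM1, a nucleolar chaperone, was lower with DMSO at -0.16 ± 0.07 (adjusted p = 0.0393), a call lost in 11 of 30 alternative fits.

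Genes of the mTORC1 pathway and of TOP control were called in both directions. In hypoxia 6 of 23 were higher and 5 lower with SLC-0111 (26.1% and 21.7%), where 23.9% of all genes were higher and 24.3% lower. With DMSO 6 were higher and 10 lower (26.1% and 43.5%), against 25% and 24.8% of all genes. All but the share lower with DMSO lay near those of all genes. DDIT4, an inhibitor of mTORC1 that low oxygen induces, averaged 307 ± 79.8 CPM in hypoxia with SLC-0111, 258 ± 88.2 CPM in hypoxia with DMSO, 32.3 ± 1.89 CPM in normoxia with SLC-0111 and 13.7 ± 0.235 CPM in normoxia with DMSO (SD, n = 4 each). It rose in hypoxia by log2 3.25 ± 0.26 (adjusted p = 3.76e-07) with SLC-0111 and 4.25 ± 0.28 (adjusted p = 4.07e-08) with DMSO, and with SLC-0111 in normoxia by 1.24 ± 0.27 (adjusted p = 0.00525). AKT1S1, which encodes the mTORC1 inhibitor PRAS40, fell in hypoxia, -0.46 ± 0.07 (adjusted p = 4.24e-06) with SLC-0111 and -0.53 ± 0.07 (adjusted p = 6.36e-07) with DMSO, and MYC, an activator of ribosome production, fell with DMSO, -0.47 ± 0.07 (adjusted p = 2.61e-06). For SLC-0111 against DMSO, 6 genes were higher and 2 lower in hypoxia and 3 higher and 3 lower in normoxia. Over all genes 9.14% were higher and 7.11% lower in hypoxia, and 12.4% and 11.2% in normoxia. DEPTOR, an mTOR inhibitor, was higher in both, 0.41 ± 0.08 (adjusted p = 0.00137) in hypoxia and 0.56 ± 0.08 (adjusted p = 1.86e-05) in normoxia, MYC and SESN2, a stress-induced mTORC1 inhibitor, were higher in hypoxia, 0.27 ± 0.07 (adjusted p = 0.00719) and 0.35 ± 0.11 (adjusted p = 0.041), and MYCN was lower in normoxia, -0.61 ± 0.09 (adjusted p = 3.81e-05). CASTOR2 was higher in hypoxia than in normoxia with SLC-0111, 0.38 ± 0.08 (adjusted p = 0.000571). The SESN2 call was lost in 17 of 30 alternative fits and that of MYC in hypoxia in 2 of 30.

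Of 15 tested chaperones, importers and ubiquitin ligases of ribosomal proteins, 8 were lower and 1 higher in hypoxia with SLC-0111, and 9 lower and 1 higher with DMSO. Over all genes hypoxia gave 24.3% lower and 23.9% higher with SLC-0111, and 24.8% and 25% with DMSO. For SLC-0111 against DMSO the shares of all genes were 9.14% higher and 7.11% lower in hypoxia, and 12.4% and 11.2% in normoxia. GRWD1, a chaperone of RPL3, averaged 38.9 ± 2.86 CPM in hypoxia with DMSO and 60.9 ± 1.37 CPM in normoxia with DMSO, -0.65 ± 0.05 (adjusted p = 5.5e-10), and LTV1, a small subunit assembly factor, gave -0.58 ± 0.11 (adjusted p = 8.1e-05). PDCD2, a chaperone of RPS2, led the falls with SLC-0111 at -0.54 ± 0.07 (adjusted p = 9.78e-07), followed by PDCD2L at -0.37 ± 0.15 (adjusted p = 0.0422), whose call was lost in 18 of 30 alternative fits. UBE2O, which ubiquitinates unassembled ribosomal proteins, was the 1 gene that was higher, 0.52 ± 0.05 (adjusted p = 3.8e-08) with SLC-0111 and 0.61 ± 0.06 (adjusted p = 3.22e-09) with DMSO. For SLC-0111 against DMSO, 1 was higher and 4 lower in hypoxia, with the importin IPO7 higher at 0.16 ± 0.04 (adjusted p = 0.00563), and UBE2O at -0.21 ± 0.06 (adjusted p = 0.0112) and the importin KPNB1 at -0.16 ± 0.04 (adjusted p = 0.00395) lower. These calls were lost in 3 of 30 alternative fits for IPO7, 6 of 30 for UBE2O and 1 of 30 for KPNB1. In normoxia 1 was higher and 7 lower, among them TSR2, a chaperone of RPS26, at -0.44 ± 0.08 (adjusted p = 0.000518), GRWD1 at -0.33 ± 0.05 (adjusted p = 3.89e-05) and AAMP, whose yeast counterpart is a chaperone of Rpl10, at -0.32 ± 0.06 (adjusted p = 0.000167).

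Of 20 genes of p53, its regulators and targets, 5 were higher and 9 lower in hypoxia with SLC-0111 (25% and 45%). There 23.9% of all genes were higher and 24.3% lower. With DMSO 3 were higher and 7 lower (15% and 35%), against 25% and 24.8% of all genes. GDF15, a secreted stress cytokine, rose by log2 2.30 ± 0.27 (adjusted p = 1.62e-05) with SLC-0111 and 1.85 ± 0.27 (adjusted p = 9.29e-05) with DMSO, TIGAR fell, -1.12 ± 0.16 (adjusted p = 4.96e-06) with SLC-0111 and -1.12 ± 0.18 (adjusted p = 1.05e-05) with DMSO, and FDXR, a mitochondrial reductase, fell too, -0.78 ± 0.07 (adjusted p = 5.01e-09) with SLC-0111 and -0.97 ± 0.07 (adjusted p = 1.6e-10) with DMSO. For SLC-0111 against DMSO, 1 was higher and 5 lower in hypoxia and 1 higher and 6 lower in normoxia. Over all genes 9.14% were higher and 7.11% lower in hypoxia, and 12.4% and 11.2% in normoxia. PHLDA3, an inhibitor of AKT, was lower in both, -0.35 ± 0.07 (adjusted p = 0.0019) in hypoxia and -0.44 ± 0.07 (adjusted p = 7.82e-05) in normoxia. AEN, a nuclease, was lower in normoxia, -0.26 ± 0.05 (adjusted p = 0.000363), TP53INP1 lower in hypoxia, -0.32 ± 0.06 (adjusted p = 0.000885), and MDM4, a p53 inhibitor, higher in normoxia, 0.31 ± 0.11 (adjusted p = 0.0444), a call lost in 15 of 30 alternative fits. CDKN1A, the cell cycle inhibitor p21, was higher in hypoxia, 0.32 ± 0.05 (adjusted p = 0.000129).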

How the data were processed

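Total RNA of HUH6 cells was sequenced in 16 libraries, 4 per group. The deposited values are raw counts per gene. The tools listed per the submitters' processing notes are HISAT2 or HISAT, HTSeq, MultiQC 1.10.1 and edgeR 3.4.0, with the build GRCh38 and no role or order stated. Whether counting used strand is not given in the sources used here, so genes that overlap on opposite strands may share reads, as may the near-identical copies and pseudogenes of these genes. All 58735 identifiers were found in GENCODE 29, which gave types, coordinates, coding lengths and overlaps. Column names matched the labels, with 2 conflicting replicate names treated as unnumbered and 0 columns left out.

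The test was that of edgeR 4.0.16 (R 4.3.3) with filterByExpr (18385 genes), TMM, robust quasi-likelihood, 1 mean per group over all 16 libraries (12 residual degrees of freedom, common biological coefficient of variation 0.0741). Each SE is the log2 fold change over the square root of F. Levels per kilobase used coding length in place of the planned exon union, since long annotated untranslated exons distort the union. Counts may include reads in untranslated exons, so such levels compare genes only roughly. Every member may be named. Library values are given for up to 4 called members with the largest rise and fall per contrast and at least 1 CPM, and for second copies, and means for stalk genes. Of each other list up to 3 called genes per contrast are named. Results of 2 genes covered by these rules are not reported here. Members and lists were chosen with earlier results of these data known. The test was also run on simulated counts, drawn for each gene independently with a constant dispersion. That setting has no shift shared by the genes of a library, so it cannot vouch for calls among genes that move together. A count of 0 allows up to 3 counts, 0.0609 to 0.91 CPM in a library, and such limits cover counting error only. Alternatives were other scalings and filters, DESeq2 1.42.0, limma-voom (limma 3.58.1), fits of the groups compared, a replicate block, a covariate for the protein-coding share of counts and leaving out each library. Starts were read from RefSeq.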

Additional observations from a re-analysis of the deposited data

Results flagged for a closer look

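No ribosomal protein gene passed the test of the difference between the SLC-0111 effects in hypoxia and in normoxia. In edgeR's quasi-likelihood fit 5.99% of all genes passed it. Among 3 other lists 4 genes did: 1 of 23 mTOR pathway and TOP regulators, 2 of 15 chaperones of ribosomal proteins and 1 of 20 p53 genes. Of 11 hepatoblastoma markers 1 passed upward and 1 downward. Of 9 hypoxia markers 2 passed downward, and of 77 mitochondrial ribosomal protein genes 1 passed upward. CDKN1A had 98.6 ± 5.31 CPM in hypoxia with SLC-0111 and 79.3 ± 3.25 CPM in hypoxia with DMSO, and 100.0 ± 5.46 CPM in normoxia with SLC-0111 and 107 ± 2.18 CPM in normoxia with DMSO (SD, n = 4 each). Its effect was 0.32 ± 0.05 (adjusted p = 0.000129) in hypoxia and -0.10 ± 0.05 (adjusted p = 0.139) in normoxia, with a difference of 0.42 ± 0.07 (adjusted p = 0.000962) that held in all 29 alternative fits. GRWD1 had effects of 0.03 ± 0.05 (adjusted p = 0.778) in hypoxia and -0.33 ± 0.05 (adjusted p = 3.89e-05) in normoxia, a difference of 0.36 ± 0.07 (adjusted p = 0.0048), lost in 1 of 29. AAMP had -0.03 ± 0.06 (adjusted p = 0.783) in hypoxia and -0.32 ± 0.06 (adjusted p = 0.000167) in normoxia, a difference of 0.29 ± 0.08 (adjusted p = 0.0323), lost in 14 of 29. EIF4E, the cap-binding factor, had 0.11 ± 0.05 (adjusted p = 0.114) in hypoxia and -0.16 ± 0.04 (adjusted p = 0.0116) in normoxia, a difference of 0.26 ± 0.06 (adjusted p = 0.0146), lost in 1 of 29. In 112 groups of 4 libraries, over 23 ribosomal protein genes and 5 library measures, 0 held a library that stood far from the other 3 by Dixon's test, where chance alone would give about 1 in 20.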

How the results depend on the processing

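Each count called, given next for SLC-0111 against DMSO in hypoxia (genes higher, 4 as reported) and in normoxia (3 higher and 2 lower), and for hypoxia against normoxia (26 lower with SLC-0111 and 36 with DMSO), was recomputed under 30 alternatives. Where not listed, a count stayed within 1.5 times. With libraries scaled by size alone 0 were higher in hypoxia, and 0 higher and 4 lower in normoxia. With upper quartile scaling 1 was higher in hypoxia, 1 lower in normoxia and 46 lower by oxygen with SLC-0111. With no filter on low counts 21 were higher in hypoxia, with limma-voom 7, and in fits of only the groups compared 1 in hypoxia and 10 in normoxia. With a covariate for the protein-coding share of counts 26 were higher in hypoxia, 28 higher and 1 lower in normoxia, and 71 lower by oxygen with either compound, with a median of -0.224 with SLC-0111. Without both hypoxia DMSO replicate 3 and normoxia SLC-0111 replicate 4, a choice made after seeing the data like the scaling to the family, 24 were higher in hypoxia and 17 in normoxia, and 46 lower by oxygen with SLC-0111. Relative to the summed counts of the 84 genes, 0 were higher and 2 lower in hypoxia, 5 lower in normoxia, and 8 lower by oxygen with SLC-0111 (median 0.000971) and 9 lower and 1 higher with DMSO (median -0.0145). With nuclear protein-coding counts as the denominator the mean share of the 84 genes was 5.93% in hypoxia with SLC-0111, 5.80% in hypoxia with DMSO, 6.84% in normoxia with SLC-0111 and 6.65% in normoxia with DMSO. Leaving out 1 library at a time gave 1 to 15 higher in hypoxia, 2 to 13 higher and 1 to 4 lower in normoxia, and 12 to 45 lower by oxygen with SLC-0111 and 16 to 48 with DMSO. Of the 70 single-gene values recomputed under these alternatives, 0 changed sign. Scaling by size alone put 33.1% of called genes on the higher side in hypoxia and 30.8% in normoxia, where TMM put 56.3% and 52.4%, and upper quartile scaling put 44.3% in hypoxia and 33.1% for the difference of both effects, where TMM put 47.8%. With no filter these shares were 67.4% and 60.6%.

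The labels give no shared source for a replicate number, so the main fit did not pair libraries by number. Correlations of same-number deviations ran from -0.0314 to 0.351 over 18 pairs, with 8 over 0.1. Those between different numbers ran from -0.3 to 0.217. The pairs of replicate 4 had 0.238, 0.28 and 0.351. Not every library correlated best with its own number, and whether libraries of a number share a source was not tested. With a replicate block, on numbered libraries alone, 7 genes were higher in hypoxia, 4 higher and 3 lower in normoxia, and 24 lower by oxygen with SLC-0111 and 39 with DMSO. The same libraries with no replicate block gave 1 higher in hypoxia, 3 higher and 2 lower in normoxia, and 16 lower with either compound.

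Depth limits the low genes most: RPL36A, RPS10 and RPL17 rest on few CPM, and in hypoxia with DMSO replicate 3 a count of 0 allows 0.91 CPM.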
